A study of Mus musculus with 19 samples.

Results

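The 46 genes described here carry out protein folding, transport and quality control in the endoplasmic reticulum (ER). They were chosen by gene symbol and role, with no threshold on their values but with earlier results of these data known, and all 46 were found among the 20408 genes of the table. Every one of them also passed the filter on low values that left 14845 genes for testing. By role, 11 were the chaperones BiP and GRP94 with their co-chaperones, 8 were folding enzymes and lectin chaperones, 5 were stress sensors and transcription factors, 10 served ER-associated degradation (ERAD), 10 belonged to the translocon and the enzymes around it, and 2 were subunits of the COPII coat.

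Proteins that a cell secretes enter the ER as unfolded chains through the Sec61 channel, where BiP (Hspa5), GRP94 (Hsp90b1), the lectins calnexin and calreticulin and the protein disulfide isomerases fold them. Correctly folded cargo leaves in COPII vesicles, and chains that fail to fold are pulled back into the cytosol and destroyed by ERAD. When unfolded chains build up, the membrane sensors IRE1 (Ern1), PERK (Eif2ak3) and ATF6 start the unfolded protein response, in which the factors XBP1 and ATF6 raise the transcription of chaperone genes. In the aortic wall, VSMCs and fibroblasts make collagen and elastin by this route.

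RNA-Seq was performed on suprarenal abdominal aortas (SRAs) of 19 male mice, 24 h after the start of an infusion of Ang II or saline from a subcutaneous osmotic pump. There were 5 saline-infused and 5 Ang II-treated IKKβ+/+ mice (SMA-CreERT2 ApoE-/-, the labels' wild type), and 4 saline-infused and 5 Ang II-treated IKKβ-/- mice (SMA-CreERT2 Ikkβ Flox/Flox ApoE-/-, the labels' KO), on a chow diet. Their age is given as 8 weeks, which the methods state for the start of tamoxifen injections, before the pumps. The labels give the dose as a range of 500 to 1000 ng/min/kg, and the methods give the upper value for this experiment. All mice thus lacked ApoE and carried a tamoxifen-inducible Cre driven by the Acta2 promoter. By the methods, mice of both genotypes received tamoxifen injections and then days of rest before the pumps. Deletion of Ikbkb was thus directed to smooth muscle cells, whereas the RNA came from the whole SRA with its other cells. The question was which of these genes changed within a day of Ang II, and whether that change or the level before it differed when VSMCs lacked IKKβ.

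The values are normalized counts, the reads of a gene in a mouse divided by that mouse's size factor. The reads counted on genes numbered 11382573 to 19906694 per mouse, and mt-Co1 took 1.82% to 11.7% of them. The highest shares, 11.7% and 10.3%, were those of saline-infused IKKβ-/- mouse X2406 and Ang II-treated IKKβ-/- mouse X2385, and results that rest on these mice are also given without them. Ikbkb had 700 ± 66.8 normalized counts in IKKβ+/+ mice (SD, n = 10) and 533 ± 78.9 in IKKβ-/- mice (SD, n = 9). Ang II-treated IKKβ+/+ mouse X2356 stood apart in nerve and chromaffin genes, with a summed marker level of 8325 beside 977 to 2225 in the other mice and 1674 normalized counts of Dbh beside 0 to 214. All 10 smooth muscle markers were present in every mouse, with a summed level between 335124 and 694664. The mouse numbers run in separate stretches by group and the sources name no batch, so any batch cannot be told apart from the groups. In whole tissue, fewer cells of a type and less RNA per cell cannot be told apart.

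The promoters of several members share a short sequence, the ER stress response element (ERSE), to which the factors NF-Y and ATF6 or XBP1 are known to bind at its ends. RefSeq promoter windows of 300 bases around the gene start (GRCm38.p6) matched 37 of the 46 members. The ERSE was searched on both strands as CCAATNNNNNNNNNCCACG, and was found in 9 of these 37 members (24.3%). Over all 27025 genes with a window it was found in 0.137%, and over all 32851 windows in 0.119%. Its shorter relative ERSE-II, searched as ATTGGNCCACG, lay in Dnajb11 and Herpud1 (0.0365% of all windows). The search for the UPRE core, TGACGTGG, matched only Sec24d among the members (0.676% of all windows). The sites are printed with 5 flanking bases because they are what the members share in sequence, and capitals mark the end blocks of each motif. Each line reads 5′ to 3′ along the motif.
Hspa5 ERSE: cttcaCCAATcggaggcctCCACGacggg
Calr ERSE: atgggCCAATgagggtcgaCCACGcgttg
Derl3 ERSE: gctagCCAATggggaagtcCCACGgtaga
Hsp90b1 ERSE: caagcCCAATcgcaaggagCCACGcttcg
Hsp90b1 ERSE: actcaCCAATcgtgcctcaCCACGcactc
Canx ERSE: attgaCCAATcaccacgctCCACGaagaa
Pdia6 ERSE: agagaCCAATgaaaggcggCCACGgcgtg
Dnajc3 ERSE: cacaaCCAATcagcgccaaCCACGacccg
Creld2 ERSE: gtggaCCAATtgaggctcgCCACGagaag
Syvn1 ERSE: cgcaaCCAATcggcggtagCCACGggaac
Herpud1 ERSE-II: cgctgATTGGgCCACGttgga
Dnajb11 ERSE-II: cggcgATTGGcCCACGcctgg
The coordinates include the flanking bases, and distances run from the RefSeq gene start to the motif itself. The Gencode gene intervals used further on begin elsewhere, so that the Hspa5 site falls within the Gencode gene. The Hspa5 site lay at chr2:34772020-34772048 on the plus strand, from -65 to -47. That of Pdia6 lay at chr12:17266486-17266514 (plus strand, -98 to -80) and that of Calr at chr8:84847070-84847098 (plus strand, -162 to -144), where the motif read against the direction of the gene. The pair of Hsp90b1 sites lay at chr10:86705633-86705661 (minus strand) and chr10:86705528-86705556 (plus strand), and the Creld2 site at chr15:88819515-88819543 (minus strand). A match of letters is a description of the promoter, and binding was not measured. The windows of Hspa13, Hyou1, Manf, Atf6, Derl1, Sec61a1, Ssr2, Sec11c and Spcs3 were not analysed.

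Levels between genes were compared as normalized counts per kilobase of exon, as means over 19 mice. Calr, which encodes the lectin calreticulin, was the most abundant at 4068 per kilobase, followed by the disulfide isomerase P4hb at 3965, Hspa5 at 3926, Hsp90b1 at 3480 and Pdia3 at 3465. The sensors were far lower, with 120 per kilobase for Atf6, 76.8 for Eif2ak3 and 51.3 for Ern1, and Derl3 was the lowest member at 5.34. Within groups the median coefficient of variation over the 46 members lay between 13.0% and 15.8%. In the saline-infused IKKβ+/+ mice 5 of the 11 chaperones of the BiP and GRP94 group exceeded 40% (Hspa5, Hyou1, Sdf2l1, Manf and Creld2), with 46.4% for Hspa5 and 52.6% for Sdf2l1, and the other 6 lay between 9.22% and 23.6%. In that group mouse X2372 was the highest in 24 members and mouse X2373 in 20, and mouse X2378 was the lowest in 28.

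**Figure D1:**
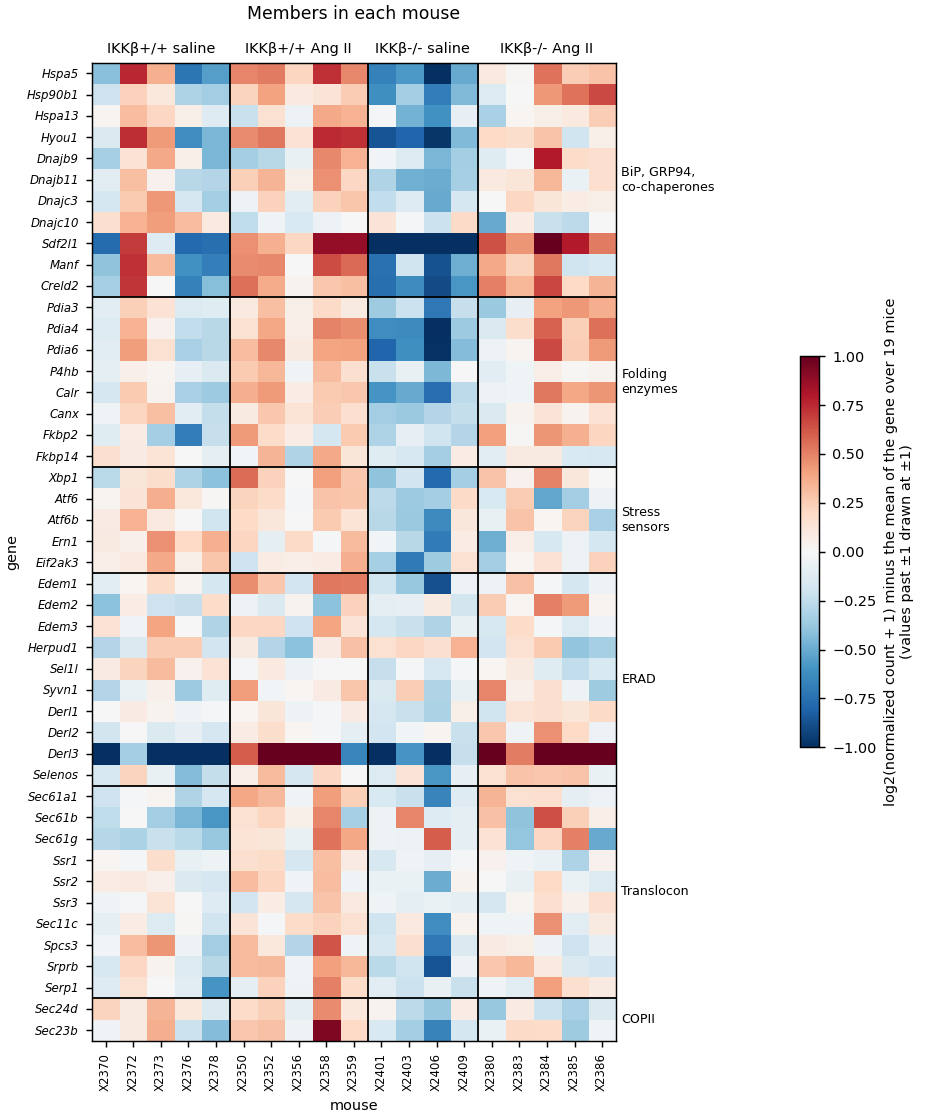
Each row is a member and each column a mouse, and the colour gives the log2 value minus the mean of the gene over 19 mice (red above, blue below, values past 1 drawn at 1). The bluest column is saline-infused IKKβ-/- mouse X2406, where 4 of 46 members lay above their mean, beside 3 to 12 in the other mice of that group. In the Ang II columns this number runs from 20 (mouse X2356) to 40 (mouse X2358).

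In IKKβ+/+ mice 6 members rose with Ang II and 1 fell. Those that rose were Derl3, Sdf2l1, Xbp1, Fkbp2, Sec61a1 and Dnajb11, and the one that fell was Dnajc10. Over all 14845 genes 4.33% rose and 4.33% fell by the same rule in limma (fold change above 1.2, adjusted p under 0.1). The median log2 fold change of the 46 members was 0.21, beside 0.0056 for all genes, and 41 of the 46 lay above 0 beside 50.7% of all genes. At an unadjusted p under 0.05, 22 members were higher (10.5% of all genes) and 1 was lower (9.84%). The groups did not overlap in Sec61g, higher with Ang II, and in Dnajc10, lower, beside 3.95% and 4.47% of all genes.

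In IKKβ-/- mice 15 members rose with Ang II and 0 fell, beside 2.59% and 2.69% of all genes. Those that rose were 6 chaperones (Sdf2l1, Creld2, Hspa5, Hyou1, Hsp90b1 and Dnajb11), 6 folding enzymes (Pdia6, Pdia4, Calr, Pdia3, Fkbp2 and Canx), the transcription factor Xbp1, Derl3 of ERAD and Sec61a1 of the translocon. The median log2 fold change of the members was 0.32, beside -0.0029 for all genes, and at an unadjusted p under 0.05 there were 26 higher members (8.6% of all genes) and 0 lower. DESeq2 and the edgeR quasi-likelihood test also called 0 lower. In 16 members every Ang II-treated mouse lay above every saline-infused mouse, beside 2.41% of all genes. The 3 largest changes were those of Derl3, Sdf2l1 and Creld2.

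The genotypes were also compared without Ang II. With saline 7 members were lower in IKKβ-/- than in IKKβ+/+ mice (Sdf2l1, Hyou1, Pdia6, Pdia4, Eif2ak3, Ern1 and Canx) and 0 higher, beside 2.07% and 3.4% of all genes. The median of the 46 log2 fold changes was -0.27, beside -0.020 for all genes, and 39 members lay below 0. At an unadjusted p under 0.05 there were 19 members, all lower (9.24% of all genes), and DESeq2 and edgeR called 0 higher. Groups did not overlap in 6 members that were lower (4.08% of all genes) and in Sec61g, which was higher (4.68%). These saline-infused mice are also the controls of the Ang II comparisons, so a low level in IKKβ-/- controls and a large rise with Ang II in IKKβ-/- mice rest partly on the same libraries.

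With Ang II in both genotypes, 0 members differed between IKKβ-/- and IKKβ+/+ mice, beside 0.0202% of all genes higher and 0.108% lower. At an unadjusted p under 0.05, 1 member was higher (5.91% of all genes) and 3 were lower (8.36%), and the edgeR quasi-likelihood test called 0 whereas DESeq2 called Sec24d (1 of 46, beside 3.58% of all genes). The effect of Ang II differed between the genotypes in 0 members and in 0 of all genes by limma, with 5 members larger in IKKβ-/- mice and 1 smaller at an unadjusted p under 0.05 (4.95% and 6.19% of all genes). By DESeq2 the difference passed for Sdf2l1 (1 of 46, beside 1.88% of all genes), and by edgeR for 0 members. The larger count of calls in IKKβ-/- mice thus does not show that the responses differ.

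**Figure D2:**
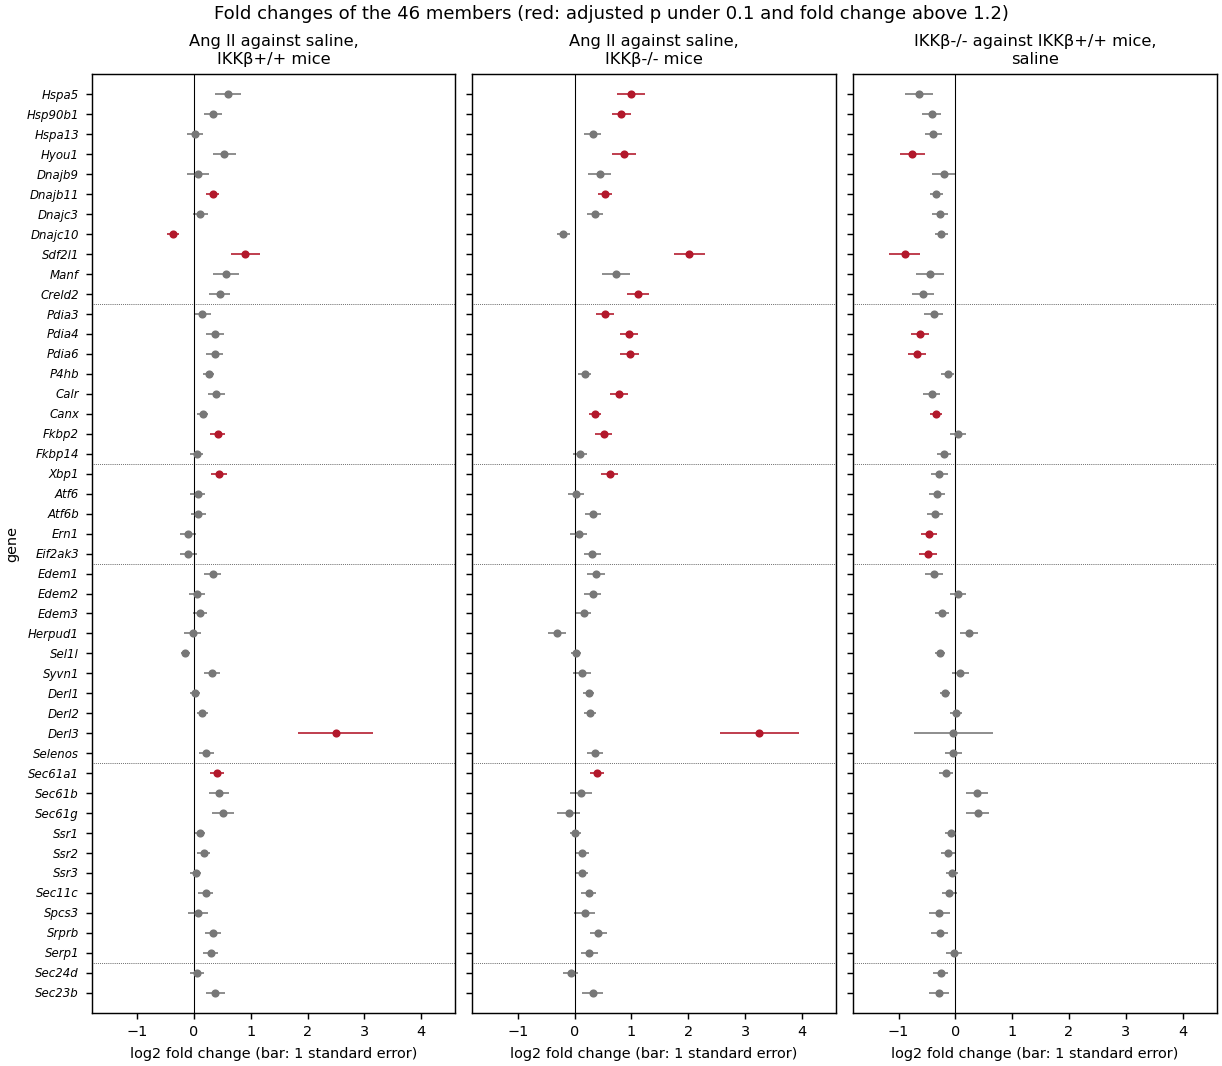
Points are log2 fold changes of the 46 members in the 3 comparisons named above the panels, and bars are 1 standard error; red marks an adjusted p under 0.1 with a fold change above 1.2. The chaperones and folding enzymes in the upper part lie right of 0 with Ang II, except Dnajc10, and left of 0 in saline-infused IKKβ-/- mice except Fkbp2. Over all members 7 points are red for Ang II in IKKβ+/+ mice (Dnajc10 on the left) and 15 in IKKβ-/- mice.

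These counts depended on single mice. In IKKβ+/+ mice the 7 calls became 1 without mouse X2350, X2358, X2376 or X2378, 3 without X2370, 4 without X2352 or X2373, 12 without X2372 and 15 without X2356. In IKKβ-/- mice the 15 calls became 8 without mouse X2406, and between 11 and 19 without any other mouse; they became 7 without both mice of the highest mt-Co1 share. These 7 were Sdf2l1, Creld2, Hsp90b1, Dnajb11, Pdia4, Pdia6 and Calr, which also stayed called whichever single mouse was left out. The 7 calls of the genotype comparison with saline became 0 without mouse X2373, X2403 or X2406, 1 without X2370, X2372 or X2401, 3 without X2352 and 4 without X2356, X2358, X2376, X2384 or X2385, and 14 without X2409. There were 0 calls without the mice of the highest mt-Co1 share. The counts over all genes moved as well. They went from 1286 to between 428 (without X2350) and 1915 (without X2356) with Ang II in IKKβ+/+ mice, and from 785 to between 435 (without X2406) and 1082 (without X2383) in IKKβ-/- mice. Between genotypes with saline they went from 812 to between 24 (without X2406) and 1726 (without X2409). Without both mice of the highest mt-Co1 share they were 1376, 296 and 19. Mouse X2356, set apart by its nerve and chromaffin genes, was the lowest of its group in 30 of the 46 members, and the part of those genes in the results was not tested.

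Some markers of other cells moved with these comparisons. Of the 10 adipocyte markers 9 were tested, of which 7 rose in IKKβ-/- mice after Ang II (median log2 fold change 4.04), beside 2.59% of all genes. Their summed level was 1151 to 4879 in saline-infused and 3400.2 to 43684 in Ang II-treated IKKβ-/- mice, and 1150.4 to 15020.4 and 3361 to 9392 in IKKβ+/+ mice. Lep was at 0 in 4 mice and Ucp1 in 3, and the other 8 were above 0 in every mouse. With saline, 2 of 10 macrophage markers and 1 adipocyte marker were lower and 1 of 10 smooth muscle markers was higher in IKKβ-/- mice. Over all genes 2.07% were lower and 3.4% higher. The macrophage sum with saline was 5470.2 to 7658 in IKKβ-/- mice and 8609 to 11705 in IKKβ+/+ mice. In IKKβ+/+ mice 4 smooth muscle markers rose with Ang II, from a sum of 362923 to 491519 with saline to 498952 to 694664. In the same comparison 1 of 10 fibroblast and 1 of 10 endothelial markers fell, while 4.33% of all genes rose and 4.33% fell. The fibroblast sum was 208290 to 298424 with saline and 153109 to 235335 with Ang II, and the endothelial sum 23118 to 38480 and 13257 to 25662. Single nerve and endothelial markers rose with Ang II, Uchl1 in IKKβ+/+ mice and Sox10 and Kdr in IKKβ-/- mice. Kdr went against most of its list, as the 10 endothelial markers had a median log2 fold change of -0.22 there, with 2 above 0. Of the nerve and chromaffin markers 7 were tested, with medians of 0.86 in IKKβ+/+ and 0.75 in IKKβ-/- mice and 5 above 0 in each. The part of these cells in the results was not tested.

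The 11 chaperones of the BiP and GRP94 group had median log2 fold changes of 0.33 with Ang II in IKKβ+/+ mice, 0.73 with Ang II in IKKβ-/- mice and -0.41 between the genotypes with saline. Hspa5 (ENSMUSG00000026864.13, chr2:34771970-34777547), which encodes BiP, the main Hsp70 chaperone of the ER, had 11599.7, 26026, 19737, 9382 and 10546 normalized counts in the saline-infused and 21732, 22208, 17902, 25621 and 21599.9 in the Ang II-treated IKKβ+/+ mice. The IKKβ-/- mice had 9674, 10368, 6369 and 10878 with saline and 16558, 15569, 22525, 18360.0 and 18797 with Ang II. Saline-infused IKKβ+/+ mice X2372 and X2373 lay above the lowest Ang II-treated mouse, whereas in IKKβ-/- mice the groups did not overlap. The log2 fold change was 1.0 ± 0.24 (SE) in IKKβ-/- mice (adjusted p = 0.0308), lost without mouse X2406, and 0.60 ± 0.23 in IKKβ+/+ mice (adjusted p = 0.138), which did not pass.

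GRP94, the Hsp90 chaperone of the ER, is encoded by Hsp90b1 (ENSMUSG00000020048.13, chr10:86690209-86705509). Its counts were 11732, 15949, 14567, 10954 and 10660.1 in saline-infused and 15858, 17964, 14504, 14824 and 16193 in Ang II-treated IKKβ+/+ mice. They were 8866, 10736, 8404 and 9997 and 12342, 13552, 18278, 19768 and 21442 in IKKβ-/- mice. The IKKβ-/- groups did not overlap, and the rise of 0.82 ± 0.17 on the log2 scale had an adjusted p of 0.013. In IKKβ+/+ mice the log2 fold change was 0.33 ± 0.16 (adjusted p = 0.242).

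Hyou1 (ENSMUSG00000032115.14, chr9:44379490-44392369) encodes a large Hsp70-like protein that exchanges nucleotide on BiP. It had 1698, 3140.0, 2521, 1219 and 1368 counts in saline-infused and 2609, 2710.0, 2075, 3157 and 3111 in Ang II-treated IKKβ+/+ mice, and 1032, 1082, 958 and 1381 and 2157, 2123, 2291, 1633 and 1956 in IKKβ-/- mice. The rise in IKKβ-/- mice was 0.87 ± 0.22 (adjusted p = 0.0319), and with saline the IKKβ-/- mice were lower, with a log2 fold change of -0.76 ± 0.22 (adjusted p = 0.0735). Mice X2376 and X2378 of the IKKβ+/+ saline group nonetheless lay below IKKβ-/- mouse X2409. Both calls of Hyou1 were lost without mouse X2406, and without both mice of the highest mt-Co1 share. The saline call was kept in 3 of the 9 fits that left out one of the mice compared.

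Sdf2l1 (ENSMUSG00000022769.9, chr16:17130138-17132383), a partner of the ER DnaJ proteins, had the largest change per unit of error in IKKβ-/- mice among the members. Its counts were 127, 353, 198, 126 and 128 with saline and 298, 279, 250.1, 399 and 401 with Ang II in IKKβ+/+ mice. In IKKβ-/- mice they were 105, 89.5, 73.9 and 101 with saline and 337, 295, 622, 377 and 311 with Ang II. Every saline-infused IKKβ-/- mouse lay below every IKKβ+/+ mouse, and the lowest Ang II-treated IKKβ-/- mouse lay far above the highest control of its genotype. The rise was 4.05-fold in IKKβ-/- mice (log2 fold change 2.02 ± 0.27, adjusted p = 0.00114) and 1.87-fold in IKKβ+/+ mice (0.90 ± 0.26, adjusted p = 0.0507). With saline the difference between genotypes was -0.89 ± 0.27 (adjusted p = 0.0881). This saline call was kept in 2 of the 9 fits that left out one of the mice compared, and the IKKβ+/+ rise in 5 of 10. Without both mice of the highest mt-Co1 share the saline call was lost. The difference of the Ang II effects was 1.12 on the log2 scale, with a 95% interval from 0.34 to 1.90, an unadjusted p of 0.00733 and an adjusted p of 0.298 by limma.

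Creld2 (ENSMUSG00000023272.4, chr15:88819646-88826683) encodes a disulfide isomerase-like protein of the ER. It had 494, 1020.2, 625, 389 and 462 counts with saline and 913, 807, 636, 752 and 767 with Ang II in IKKβ+/+ mice, and 369, 402, 335 and 417 and 882, 783, 990.0, 715 and 789 in IKKβ-/- mice. The IKKβ-/- groups lay well apart (1.12 ± 0.19, adjusted p = 0.00566), while mouse X2372 of the IKKβ+/+ saline group exceeded all Ang II-treated mice of its genotype (0.45 ± 0.18, adjusted p = 0.169).

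The DnaJ co-chaperones hand substrates to BiP, and Dnajb11 and Dnajc10 were called in opposite directions in IKKβ+/+ mice. Dnajb11 (ENSMUSG00000004460.17, chr16:22857845-22879634) had 1233, 1639, 1368, 1095 and 1086 counts with saline and 1566, 1680.0, 1383, 1823 and 1534 with Ang II in IKKβ+/+ mice, and 1077, 952, 944 and 1057 and 1426, 1450.1, 1676, 1267 and 1497 in IKKβ-/- mice. It rose by 0.53 ± 0.12 in IKKβ-/- mice (adjusted p = 0.0189) and by 0.33 ± 0.11 in IKKβ+/+ mice (adjusted p = 0.098), where only 2 of the 10 fits that left out one of the mice compared kept the call. Dnajc10 (ENSMUSG00000027006.13, chr2:80315466-80354043), whose product ERdj5 reduces disulfide bonds of ERAD substrates, had 3153, 3590.2, 3778, 3493 and 3018 with saline and 2371, 2746, 2545, 2709.6 and 2821 with Ang II in IKKβ+/+ mice. It had 3095, 2784, 2438 and 3219.8 and 1994, 2967, 2425, 2362 and 2829 in IKKβ-/- mice. All 5 Ang II-treated IKKβ+/+ mice lay below all saline-infused ones, a log2 fold change of -0.37 ± 0.11 (adjusted p = 0.0604), and Dnajc10 was the one member called lower with Ang II. Its call was kept in 5 of the 10 fits that left out one of the mice compared. The IKKβ-/- value was -0.20 ± 0.12 (adjusted p = 0.376). The other members of this group, Hspa13, Dnajb9, Dnajc3 and Manf, were not called in any of the 5 comparisons, with 0.73 ± 0.24 for Manf in IKKβ-/- mice as the largest value among them.

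**Figure D3:**
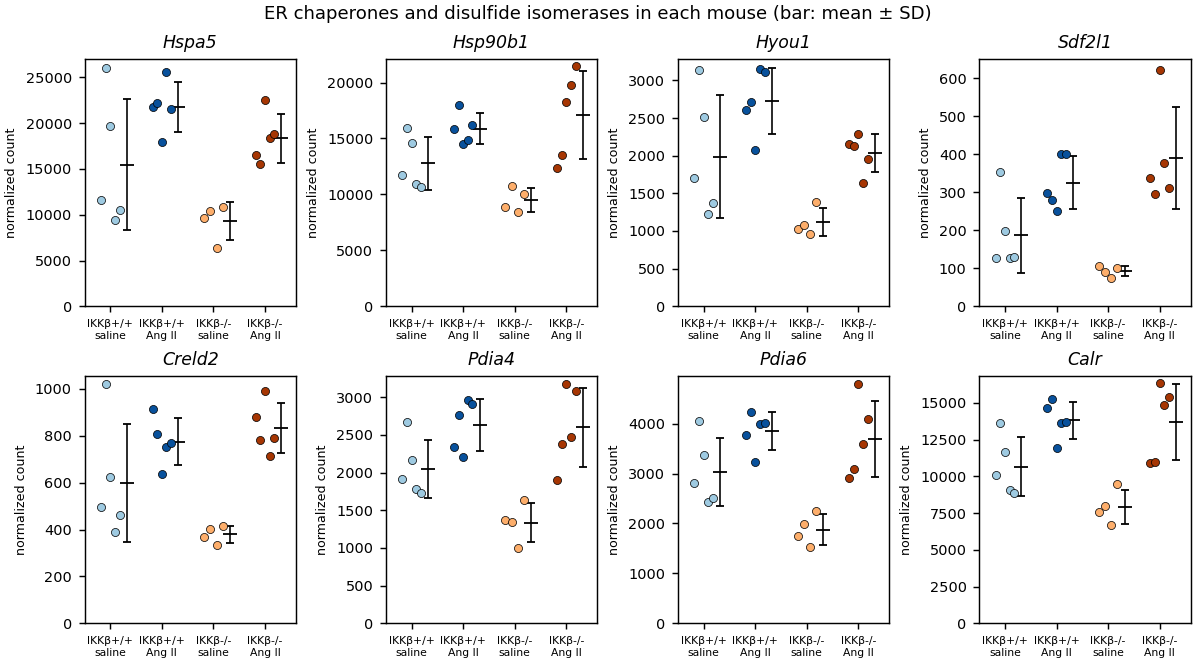
Normalized counts of 8 chaperones and folding enzymes, 1 point per mouse, with the mean ± SD of each group beside the points and axes that start at 0. The wide spread of the IKKβ+/+ saline group and the low, narrow IKKβ-/- saline group stand out, for Hspa5 with means of 15458 and 9322, whereas the means with Ang II are 21813 and 18362.

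Among the 8 folding enzymes the median log2 fold changes were 0.31 with Ang II in IKKβ+/+ mice, 0.52 with Ang II in IKKβ-/- mice and -0.36 between genotypes with saline. Pdia6 (ENSMUSG00000020571.13, chr12:17266545-17284770), a disulfide isomerase that works with BiP, had 2806, 4049, 3373, 2429.6 and 2509 counts with saline and 3763, 4228, 3228, 3984 and 4019 with Ang II in IKKβ+/+ mice. The IKKβ-/- mice had 1749, 1989, 1529.5 and 2243 and 2912, 3089, 4787, 3590.4 and 4087. All 4 saline-infused IKKβ-/- mice lay below every other mouse. The rise in IKKβ-/- mice was 0.97 ± 0.16 (adjusted p = 0.0047), against 0.36 ± 0.15 (adjusted p = 0.183) in IKKβ+/+ mice, and the difference between these effects was 0.60, with a 95% interval from 0.14 to 1.07 (unadjusted p = 0.0137, adjusted p = 0.344).

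Pdia4 (ENSMUSG00000025823.9, chr6:47796141-47813430), another disulfide isomerase, showed the same order of groups. The counts were 1917, 2673, 2165, 1777 and 1736 with saline and 2336, 2759, 2206, 2969 and 2909 with Ang II in IKKβ+/+ mice, and 1367, 1351, 998 and 1634 and 1907, 2379.5, 3172, 2478 and 3077 in IKKβ-/- mice. The change with Ang II was 0.96 ± 0.16 in IKKβ-/- mice (adjusted p = 0.00565) and 0.37 ± 0.16 in IKKβ+/+ mice (adjusted p = 0.183). With saline both isomerases were lower in IKKβ-/- mice, by log2 fold changes of -0.68 ± 0.16 for Pdia6 (adjusted p = 0.0501) and -0.62 ± 0.16 for Pdia4 (adjusted p = 0.0591). These saline calls were kept in 6 and 3 of the 9 fits that left out one of the mice compared. Pdia3 (ENSMUSG00000027248.13, chr2:121413775-121438687), the isomerase that serves glycoproteins held by the lectins, had 9908, 12555, 11802, 9723 and 9817 and 11414, 13112, 11106, 12187 and 11369 in IKKβ+/+ mice. In IKKβ-/- mice it had 8341, 9177, 6484 and 9112 with saline and 8245, 10046, 14113, 14418 and 13752 with Ang II. Ang II-treated mouse X2380 lay among the saline-infused mice here, and the rise of 0.53 ± 0.16 (adjusted p = 0.0795) was lost without mouse X2384, X2385, X2386, X2401 or X2406.

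The lectin chaperones calreticulin and calnexin hold glycoproteins while they fold. Calr (ENSMUSG00000003814.8, chr8:84841850-84846934) had 10119.7, 13626, 11627, 9059.5 and 8839 counts with saline and 14629, 15246, 11915, 13610.1 and 13699 with Ang II in IKKβ+/+ mice, and 7544, 8009, 6707 and 9474 and 10917, 10988, 16338, 14855 and 15416 in IKKβ-/- mice. It rose by 0.78 ± 0.16 in IKKβ-/- mice without overlap (adjusted p = 0.0129), and the IKKβ+/+ value was 0.39 ± 0.15 (adjusted p = 0.134). Canx (ENSMUSG00000020368.15, chr11:50293961-50325673) had 6642, 7903, 8361, 6314 and 5754 and 7220.1, 8203, 7456, 8049 and 7621 in IKKβ+/+ mice, and 5352, 5258, 5538 and 5755 and 6163, 6964, 7428, 6966 and 7524 in IKKβ-/- mice. Its changes were smaller, with 0.35 ± 0.11 for Ang II in IKKβ-/- mice (adjusted p = 0.0852) and -0.34 ± 0.11 between genotypes with saline (adjusted p = 0.0976), and both calls were lost without mouse X2401, X2403 or X2406, among others.

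Fkbp2 (ENSMUSG00000056629.16, chr19:6977741-6980501), a peptidyl-prolyl isomerase of the ER, was one of the members that rose in both genotypes. It had 387, 442, 333, 260.1 and 358 counts with saline and 564, 479, 443, 373 and 504 with Ang II in IKKβ+/+ mice, and 339.7, 397, 366 and 344 and 561, 424, 572, 539.5 and 489.7 in IKKβ-/- mice. The rises were 0.42 ± 0.13 (adjusted p = 0.0824) and 0.51 ± 0.14 (adjusted p = 0.0593), and with saline the genotypes had means of 356 and 362. These calls were kept in 4 of the 10 and 5 of the 9 fits that left out one of the mice compared. The isomerase P4hb, which is also the beta subunit of the collagen prolyl hydroxylase, was not called, with 0.26 ± 0.10 in IKKβ+/+ and 0.18 ± 0.11 in IKKβ-/- mice. Fkbp14 was not called either.

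Of the 5 sensors and factors, Xbp1 rose with Ang II in both genotypes and Ern1 and Eif2ak3 were lower in saline-infused IKKβ-/- mice. Xbp1 (ENSMUSG00000020484.19, chr11:5520659-5525893), the transcription factor whose mRNA is spliced by IRE1, had 2127, 2789, 2902, 2072 and 1934 counts with saline and 3781, 3013, 2561, 3416 and 3106 with Ang II in IKKβ+/+ mice. The IKKβ-/- mice had 1949, 2253, 1497 and 2034 and 3131, 2654, 3625, 2788 and 2578, with no overlap. The rises were 0.43 ± 0.14 (adjusted p = 0.0839) and 0.62 ± 0.15 (adjusted p = 0.0288). The IKKβ+/+ call was kept in 3 of the 10 fits that left out one of the mice compared. The IKKβ-/- call was lost without mouse X2406. Counts per gene do not separate spliced from unspliced Xbp1 mRNA.

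Ern1 (ENSMUSG00000020715.9, chr11:106394650-106487852), which encodes IRE1, had 439, 427, 565, 473 and 528 counts with saline and 478, 387, 471, 406 and 513 with Ang II in IKKβ+/+ mice, and 403, 339, 254 and 433 and 294, 431, 369, 395 and 365 in IKKβ-/- mice. Eif2ak3 (ENSMUSG00000031668.14, chr6:70844515-70905245), which encodes PERK, had 475, 487, 592, 473 and 551 and 394, 479, 477, 479 and 585 in IKKβ+/+ mice, and 362, 278, 355 and 506 and 357, 462, 504, 438 and 535 in IKKβ-/- mice. Neither changed past the threshold with Ang II, and mouse X2409 reached the IKKβ+/+ range in both. With saline the log2 fold changes between genotypes were -0.46 ± 0.15 (adjusted p = 0.099) and -0.48 ± 0.15 (adjusted p = 0.0967), close to the threshold, and each call was kept in 1 of the 9 fits that left out one of the mice compared.

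Atf6 (ENSMUSG00000026663.6, chr1:170704674-170867771), the sensor that is cut in the Golgi to free a transcription factor, had 1112, 1191, 1398, 1169.7 and 1098 counts with saline and 1267, 1238, 1075, 1327 and 1321 with Ang II in IKKβ+/+ mice. It had 910.1, 846, 861 and 1242 and 978, 1300.1, 759, 854 and 1048 in IKKβ-/- mice. Its relative Atf6b (ENSMUSG00000015461.15, chr17:34647146-34655074) had 649.5, 782, 656, 610.5 and 535 and 705, 664, 611, 734 and 674 in IKKβ+/+ mice, and 505, 474, 395 and 663 and 582, 746, 622, 715 and 488 in IKKβ-/- mice. Neither was called in any of the 5 comparisons. With Ang II Atf6 was -0.35 ± 0.13 between genotypes (unadjusted p = 0.0138, adjusted p = 0.245).

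**Figure D4:**
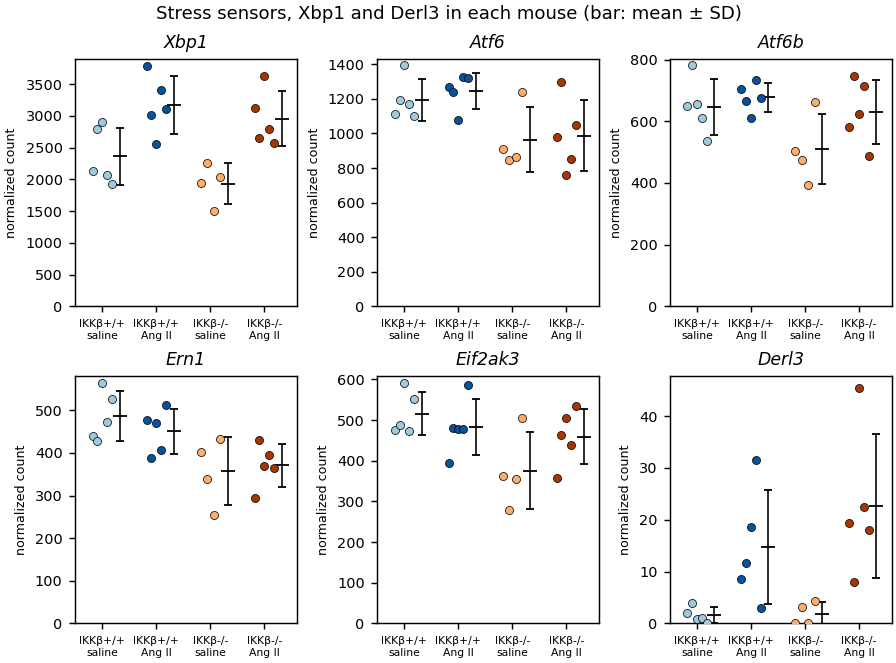
Normalized counts of the sensors and factors and of Derl3, 1 point per mouse, with the mean ± SD of each group. The means of Xbp1 and Derl3 are higher with Ang II in both genotypes, without overlap in IKKβ-/- mice but with overlap in IKKβ+/+ mice. Atf6, Atf6b, Ern1 and Eif2ak3 overlap between saline and Ang II in both genotypes.

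Of the 10 ERAD genes only Derl3 was called in any comparison by the limma fit of all mice. The medians were 0.13 and 0.26 with Ang II in IKKβ+/+ and IKKβ-/- mice and -0.034 between the genotypes with saline. Derl3 (ENSMUSG00000009092.5, chr10:75893413-75895941), a derlin thought to form part of the channel through which chains leave the ER, had only 0 to 43 reads per mouse. It had 2, 3.97, 0.881, 0.949 and 0 normalized counts with saline and 8.57, 11.7, 18.6, 31.5 and 2.98 with Ang II in IKKβ+/+ mice. The IKKβ-/- mice had 0, 3.16, 0 and 4.35 with saline and 19.4, 7.94, 45.4, 22.5 and 18 with Ang II. Among IKKβ+/+ mice Ang II-treated mouse X2359 lay within the saline range, and the IKKβ-/- groups did not overlap. On the scale of log2(normalized count + 1), which understates changes of low genes, the rises were 2.49 ± 0.66 (adjusted p = 0.0384), lost without mouse X2358 or X2378, and 3.25 ± 0.70 (adjusted p = 0.0171). Derl3 is abundant in plasma cells, and 9 of 11 B cell and plasma cell markers were listed, with a sum of 132 to 1347 in Ang II-treated and 237 to 481 in saline-infused mice. The 1347 was that of IKKβ-/- mouse X2385, with 901 normalized counts of Ighm and 284 of Jchain. Median sums were 210 with Ang II and 369 with saline in IKKβ+/+ mice, and 343 and 279 in IKKβ-/- mice. Jchain was at 0 in 7 mice, and none of the 4 markers tested was called.

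The remaining ERAD genes are the mannosidase-like Edem1, Edem2 and Edem3, which mark glycoproteins for removal, the ligase Syvn1 with its partners Sel1l and Herpud1, Derl1, Derl2 and Selenos. Their log2 fold changes lay between -0.15 (Sel1l) and 0.33 (Edem1) with Ang II in IKKβ+/+ mice and between -0.32 (Herpud1) and 0.37 (Edem1) in IKKβ-/- mice. Herpud1, a usual target of the unfolded protein response, thus had a value below 0 where BiP rose, and its adjusted p was 0.314. Between genotypes with saline the values lay between -0.37 (Edem1) and 0.24 (Herpud1). There Sel1l was lower in IKKβ-/- mice without overlap (-0.27 ± 0.088, adjusted p = 0.106 by limma). It was called there by DESeq2 (1437 of all genes called), with TMM scaling (789) and with array quality weights (1902).

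The 10 translocon genes had medians of 0.25 with Ang II in IKKβ+/+ and 0.15 in IKKβ-/- mice, and -0.093 between genotypes with saline. Sec61a1 (ENSMUSG00000030082.14, chr6:88503579-88518905), the pore-forming subunit of the channel, was the one called. Its counts were 2204, 2514, 2586, 2069 and 2260.3 with saline and 3333, 3190.3, 2482, 3401 and 2997 with Ang II in IKKβ+/+ mice, and 2285, 2185, 1605 and 2321 and 3216, 2822, 2865, 2378.1 and 2439.6 in IKKβ-/- mice. It rose by 0.40 ± 0.12 (adjusted p = 0.0574) and by 0.39 ± 0.13 (adjusted p = 0.099997), the latter at the very edge of the threshold and lost in 14 of the 19 fits that left out a mouse. Sec61g, a small subunit of the channel, had 85.2, 83.4, 89, 86.4 and 79.7 with saline and 115, 113, 98.7, 152 and 136 with Ang II in IKKβ+/+ mice without overlap (0.52 ± 0.19, adjusted p = 0.128). The IKKβ-/- mice had 100.4, 100.1, 159 and 98 and 116, 79.4, 120.4, 148 and 73.3, and the difference of the effects was -0.62, with a 95% interval from -1.21 to -0.038 (unadjusted p = 0.038, adjusted p = 0.421). Sec61b, the translocon-associated subunits Ssr1, Ssr2 and Ssr3, the signal peptidase subunits Sec11c and Spcs3, the signal recognition particle receptor subunit Srprb and Serp1 were not called.

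COPII vesicles carry folded cargo from the ER to the Golgi, and Sec23b and Sec24d form their inner coat. Sec23b (ENSMUSG00000027429.16, chr2:144556229-144590749) had 498, 541, 656, 439.6 and 376 counts with saline and 616, 624, 493, 974 and 585 with Ang II in IKKβ+/+ mice, and 457, 403, 321 and 451 and 487, 583, 579, 398 and 499 in IKKβ-/- mice. Mouse X2358 stood above all others, and with Ang II in IKKβ+/+ mice the log2 fold change was 0.38 ± 0.17 (adjusted p = 0.221). Sec24d, a subunit with a known part in collagen export, had means of 3639 ± 528 and 2790 ± 362 (SD, n = 5 each) in Ang II-treated IKKβ+/+ and IKKβ-/- mice. The log2 fold change between them was -0.38 ± 0.12 (adjusted p = 0.212), and DESeq2 on the recovered reads called it (adjusted p = 0.0947), as did limma without mouse X2356 (adjusted p = 0.0847), where 553 of all genes were called in place of 19.

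**Figure D5:**
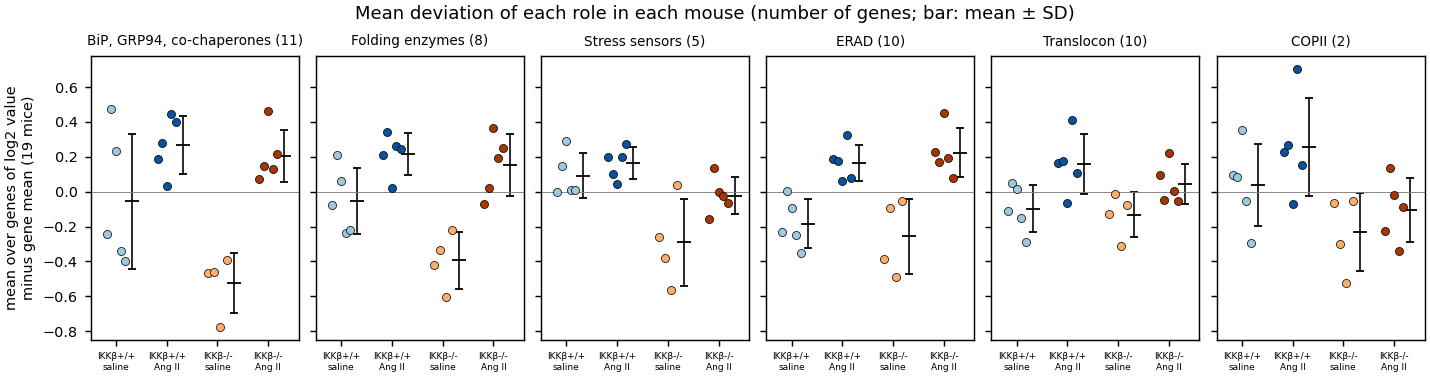
Each point is a mouse, and its height is the mean over the genes of a role of the log2 value minus the gene's mean over 19 mice; bars are the group mean ± SD. The IKKβ-/- saline group has the lowest mean in all 6 roles, and all 4 of its mice lie below 0 except mouse X2409 for the sensors. For ERAD and the translocon the lowest mean rests on mouse X2406 (-0.492 and -0.311). The other mice of its group had -0.385, -0.096 and -0.054 for ERAD, beside a mean of -0.184 in saline-infused IKKβ+/+ mice. For the translocon they had -0.126, -0.014 and -0.077, beside -0.098.

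Across the roles, the medians with Ang II in IKKβ-/- mice ran from 0.73 for the BiP and GRP94 group and 0.52 for the folding enzymes to 0.31 for the sensors, 0.26 for ERAD, 0.15 for the translocon and 0.13 for COPII. Of the 9 members with an ERSE in the promoter window, 7 rose in IKKβ-/- mice (Hspa5, Hsp90b1, Creld2, Pdia6, Calr, Canx and Derl3), the median log2 fold change of the 9 being 0.82. Of the 28 matched members without one, which include Dnajb11 and Herpud1 with an ERSE-II, 6 rose, with a median of 0.29. Over all genes 2.59% rose. By role, 4 of the 9 were chaperones of the BiP and GRP94 group, 3 were folding enzymes and 2 were ERAD genes. The division by ERSE thus overlaps the division by role. In IKKβ+/+ mice 1 of the 9 and 4 of the 28 rose, beside 4.33% of all genes, and the medians were 0.36 and 0.14. Among the 28 other genes whose windows hold the letters, 8 were tested and 0 rose in IKKβ-/- mice. The members were not chosen at random from the genome, and no test was made of the division by ERSE.

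The wider ER machinery was followed in 209 further genes, of which 196 were tested. With Ang II 22 rose and 5 fell in IKKβ+/+ mice, beside 4.33% and 4.33% of all genes. In IKKβ-/- mice 12 rose and 4 fell, beside 2.59% and 2.69%. With saline 3 were higher and 13 lower in IKKβ-/- mice, beside 3.4% and 2.07% of all genes. With Ang II Qsox1 alone was lower, beside 0.108% of all genes. The medians were 0.11, 0.066, -0.054 and -0.079 in these 4 comparisons, nearer to 0 than those of the members. In IKKβ+/+ mice the largest changes were Chac1, a target of ATF4 (log2 fold change 1.56), Sel1l3 (-1.32), the prolyl isomerase Fkbp11 (0.92), the collagen hydroxylase P3h3 (-0.61), Atf4 (0.58), Nck1 (-0.50), Fkbp9 (-0.49) and the oligosaccharyltransferase subunit Dad1 (0.48). Chac1 had 68.3 ± 76.6 normalized counts with Ang II and 15.5 ± 3.70 with saline (SD, n = 5 each). The calls of Sel1l3, P3h3 and Dad1 were kept whichever mouse was left out, whereas Nck1 kept its call in 6 of 19 such fits.

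In IKKβ-/- mice Ppp1r15a, the phosphatase subunit GADD34 that restores translation after PERK has acted, fell (-1.05). Fkbp11 (0.89), the oligosaccharyltransferase subunits Rpn1 (0.52), Krtcap2 (0.47) and Stt3b (0.45), the glucosidase Mogs (0.48), the folding sensor Uggt1 (0.47) and the cargo receptor Lman1 (0.46) rose. With saline Uggt1 (-0.56), Tram2 (-0.55), the collagen regulator Creb3l1 (-0.54), Lman1 (-0.53), Uggt2 (-0.48) and Stt3b (-0.42) were lower in IKKβ-/- mice, and Sec62 (0.49) and Srp9 (0.44) were higher. Qsox1, a sulfhydryl oxidase, had 5985 ± 1183 normalized counts in IKKβ+/+ and 3649 ± 726 in IKKβ-/- mice with Ang II (SD, n = 5 each; -0.71, adjusted p = 0.0967), a call kept in 5 of 19 fits that left out a mouse. Stt3b and Uggt2 with saline kept theirs in 4 and 6 of 19 and Fkbp11 in IKKβ-/- mice in 7, and the calls of the other genes named here, apart from Nck1, were kept in 10 to 19.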

How the data were processed

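Poly(A) RNA of the SRAs of 19 mice was sequenced as single reads from stranded libraries. For the deposited values the authors used Trimmomatic 0.35 to trim, STAR 2.7.1a to align to GRCm38 and Gencode genes to count, after which DESeq2 1.30.1 normalized the gene counts. The deposited signal values are these normalized counts. All of them (100%) were, within a tolerance of 0.01, whole multiples of what 1 read is worth in that mouse, so the reads were recovered for the count tests; in mouse X2359 this value was 0.994, too near to 1 to tell the 2 scales apart.

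A gene was tested where 4 or more mice had 10 or more normalized counts (14845 genes, with 5563 left out). A pseudocount of 1 was added before log2, so fold changes are on that scale. Limma 3.58.1 (lmFit, eBayes with a trend, R 4.3.3) fitted a mean for each of the 4 groups. Tests were two-sided, with Benjamini-Hochberg adjustment over all genes tested, and genes were called at an adjusted p under 0.1 with a fold above 1.2. Mice are the replicates. Alternatives were a pseudocount of 4, no filter, only the groups compared, array quality weights, TMM scaling and the quasi-likelihood test of edgeR 4.0.16, DESeq2 1.42.0, an adjusted p under 0.05, a fold above 1.5 and each mouse left out; the removal of both mice of the highest mt-Co1 share was chosen after seeing the data. Simulated data were used to check the limma step.

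Full values by mouse are given for members called in any comparison, for the sensors and factors, and for the COPII gene with the larger change in IKKβ+/+ mice; those of Sec61g, and the named values of the other members, were chosen after their values were seen. Of the wider ER genes, the 8 with the largest change among those called in each comparison are named. Members and lists were chosen with earlier results of these data known. Gene positions and exon lengths are those of Gencode M21 on GRCm38. Marker lists of T cells, nerve and chromaffin cells, pancreas, adrenal cortex and mesothelium were read as well, and their sums are given in the closing section.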

Additional observations from a re-analysis of the deposited data

Results flagged for a closer look

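A mouse was flagged where its gap to the nearest other mouse of its group was large against the range of that group (Dixon's 95% limit). Of 184 sets of a member in a group, 8 were flagged, and about 1 in 20 would be by chance. In Ang II-treated IKKβ-/- mouse X2384, Dnajb9 had 1395.7 normalized counts beside 738 to 914 in the other 4 mice, and Sdf2l1 had 622 beside 295 to 377. In mouse X2380 of the same group Derl1 had 1220.8 beside 1521 to 1602. In the saline-infused IKKβ-/- group Atf6 had 1242 in mouse X2409 beside 846 to 910.1, Sec61b had 789 in mouse X2403 beside 513 to 541, and Sec61g had 159 in mouse X2406 beside 98.0 to 100.4. In the Ang II-treated IKKβ+/+ group Srprb had 701 in mouse X2356 beside 896 to 957, and Sec23b had 974 in mouse X2358 beside 493 to 624. With mouse X2384 left out, the rise of Sdf2l1 in IKKβ-/- mice was still called.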

How the results depend on the processing

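Of 1161 refits of the members named with full values, 958 kept their side of the threshold, 187 lost a call and 16 gained one, and none of these refits reversed a direction. They cover Ang II against saline in IKKβ+/+ mice for all these members, and the other comparisons only for members called there. Calls gained elsewhere by members not called are thus not in this count. For Ang II against saline in IKKβ+/+ mice, the 7 calls became 4 without the filter, 18 with array quality weights, 1 at an adjusted p under 0.05 and 2 at a fold above 1.5, and 1 to 15 with a mouse left out. In IKKβ-/- mice the 15 calls became 7 without both mice of the highest mt-Co1 share, and 8 to 19 with a mouse left out. For the genotypes with saline, the 7 calls became 3 without the filter, 13 by DESeq2, 4 at a fold above 1.5, 0 at an adjusted p under 0.05 and 0 without both mice of the highest mt-Co1 share, and 0 to 14 with a mouse left out. For the genotypes with Ang II, DESeq2 called 1 and leaving out a mouse gave 0 to 1. For the difference of the Ang II effects DESeq2 called 1. The causes of these moves were not tested. No paired analysis was possible because each mouse has a number of its own and no number is shared between groups. With 4 or 5 mice per group, members near the threshold, such as Sec61a1, Canx and Ern1, depend on each mouse, and Derl3, at up to 43 reads, depends on depth as well.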

Other observations

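The marker lists not described with the results had these sums of normalized counts. T cell markers (8 of 8 listed) lay between 7.14 and 70.3 in all mice. Nerve and chromaffin markers (9 of 10 listed) lay between 977 and 2225 in 18 mice and at 8325 in Ang II-treated IKKβ+/+ mouse X2356, where Th had 825 normalized counts beside 0 to 98.5 elsewhere and Prph had 1012 beside 0 to 88.9. Pancreatic acinar markers (2 of 11 listed) lay between 47.1 and 144, adrenal cortex markers (2 of 8) between 3.60 and 93.6, and mesothelial markers (3 of 6) between 0 and 27.0.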
